A study of Mus musculus with 12 samples.

Results

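The MAP kinase phosphatases of the Dusp family are enzymes that remove the activating phosphates from the MAP kinases ERK, JNK and p38. Brown adipose tissue burns fat to make heat, and the family was described there through the genes Dusp1, Dusp2, Dusp4, Dusp5, Dusp6, Dusp7, Dusp8, Dusp9, Dusp10 and Dusp16. Every probe set that the platform annotation assigns to just 1 of these genes, under its old or its current symbol, was taken. This gave 18 of the 34945 single-gene probe sets on the array, and 10 of the 18193 genes tested. The mice were male, leptin-deficient, obese ob/ob animals aged 3 months and kept on normal chow, and both groups share this background. In the treated group 6 mice received an agonistic antibody against the receptor FGFR1, a single intraperitoneal dose of 1 mg/kg. The 6 control mice received a control IgG, for which no dose is stated, and were pair-fed, which means that their food was matched to the intake of the treated mice. Tissue was taken on day 4, and RNA of each mouse was measured on its own array. The antibody was given to the whole animal, the array read whole tissue, and no mouse was sampled before or on other days.

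FGFR1 is a receptor tyrosine kinase that, once activated, signals through RAS, RAF and MEK to the kinase ERK. The phosphatases are a brake on this pathway. Some are themselves switched on by ERK, which closes a feedback loop, and Dusp6 is widely used as a readout of FGF signalling. The family is sorted into a class of inducible nuclear enzymes that act on several MAP kinases (Dusp1, Dusp2, Dusp4, and the ERK-selective Dusp5), a class of cytoplasmic enzymes that prefer ERK (Dusp6, Dusp7, Dusp9) and a class that prefers JNK and p38 (Dusp8, Dusp10, Dusp16). In brown fat, p38 also acts downstream of cold and adrenergic stimuli on the thermogenic genes.

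The values are log2 expression, with array medians from 7.19 to 7.23, so a difference of 1 is a doubling of the signal. Each array correlated with the others of its group at 0.993 to 0.996 across probe sets. The brown fat marker Ucp1, the protein that uncouples respiration to make heat, lay between 14.48 and 14.59 in controls and between 14.49 and 14.61 after anti-FGFR1. This is close to the largest value on the arrays, 14.9, so it identifies the tissue and says little about a change. Of all genes, 8.03% were called at an adjusted p under 0.05 (limma, Benjamini-Hochberg over all genes), 2.94% higher and 5.09% lower after anti-FGFR1. That split of 535 higher and 926 lower genes became 732 and 760 after another quantile normalization. An unadjusted p under 0.05 was reached by 22.4% of genes. Of 9 measured brown adipocyte markers 2 were called higher and 0 lower, and 4 had an unadjusted p under 0.05. Their log2 fold changes lay between -0.22 and 0.76.

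The comparison asks which phosphatases differ in brown fat on day 4 after FGFR1 activation. Dusp4 and Dusp6 rose, to 1.73 and 1.55 times the control level. No member fell, and the other 8 were not called. The share of members called higher, 2 of 10, stands beside 2.94% of all genes. The members were chosen with earlier results of these data known, so this share is a description and not a test. Groups that did not overlap at all were seen for 1 member, Dusp6, against 1.57% of all genes with every treated array above every control. Of the 10 members 4 had an unadjusted p under 0.05 in limma, namely Dusp4, Dusp6, Dusp9 and Dusp16, beside 22.4% of all genes. The median log2 fold change of the members was 0.016, close to the 0.0091 of all genes, and 6 of 10 members lay above 0 as did 53.4% of all genes. The median absolute change was 0.21 for the members, 0.073 for all genes and 0.28 for called genes.

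**Figure D1:**
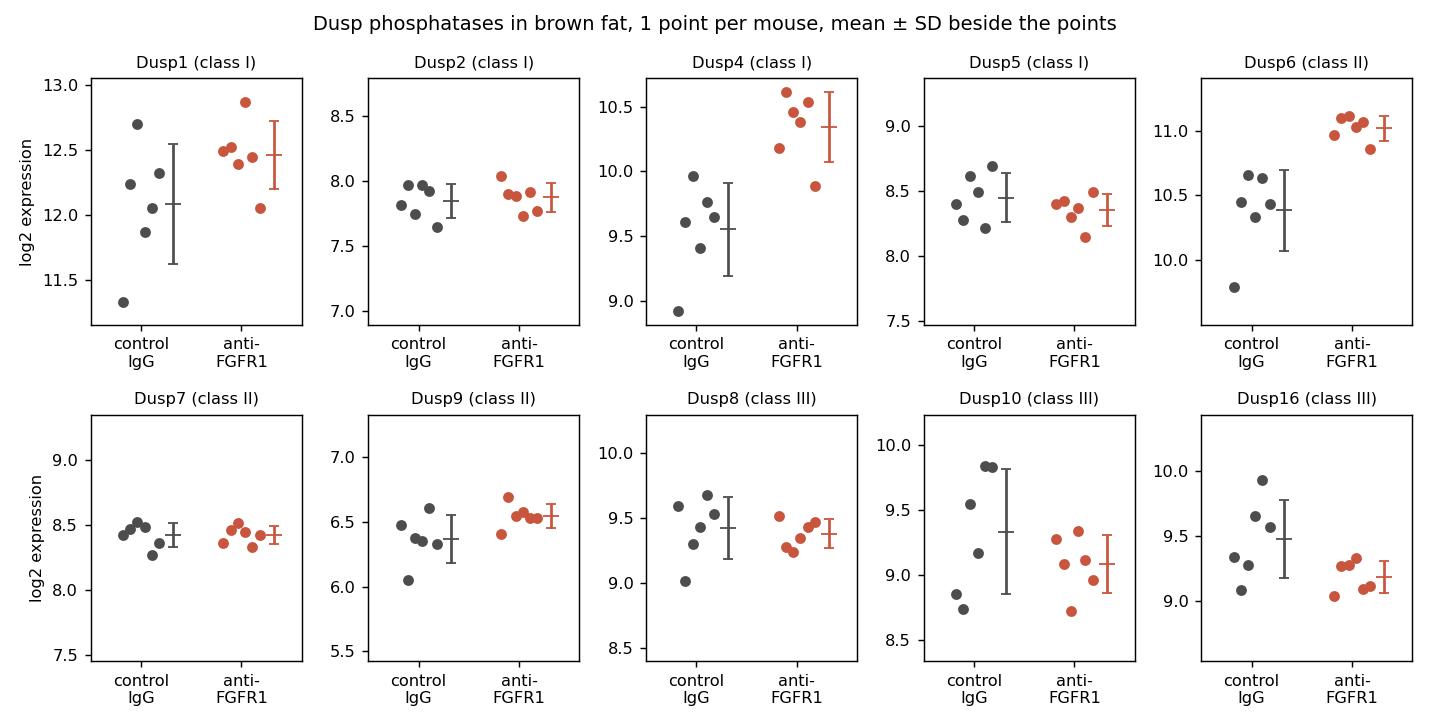
Log2 expression of the 10 phosphatase genes in brown fat, 1 panel per gene. The panels span the same length of the log2 scale at different levels. Each point is 1 mouse (6 control IgG, 6 anti-FGFR1), and the bars show mean ± SD. All 6 treated points lie above all controls for Dusp6, 5 of 6 for Dusp4, and 1 of 6 for each of Dusp1, Dusp2 and Dusp9.

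Among the nuclear enzymes Dusp4, which dephosphorylates ERK and JNK, had the largest difference of the members. It read 8.92, 9.61, 9.97, 9.41, 9.76 and 9.64 on control arrays 1 to 6, and 10.18, 10.61, 10.46, 10.38, 10.53 and 9.89 on anti-FGFR1 arrays 1 to 6. The groups overlapped by a single array, since treated replicate 6 lay below control replicate 3 and the other 5 treated arrays lay above every control. The control mean was 9.55 ± 0.36 (SD, n = 6) and the treated mean 10.34 ± 0.27 (SD, n = 6). The log2 fold change was 0.79 ± 0.16 (SE, 95% interval 0.46 to 1.12), with a limma adjusted p of 0.00595. Control replicate 1 stood well below the other controls, and without it the difference was 0.66 (limma adjusted p = 0.006). The gene has 1 probe set on the array, so no other probe set of it could be compared.

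Dusp1, a broad MAP kinase phosphatase that is also induced by stress and glucocorticoids, was not called. Its controls ran from 11.33 through a median of 12.15 to 12.70, and its treated arrays from 12.06 through 12.47 to 12.88. The groups overlapped in part, with 1 treated array above every control and 3 controls below every treated array. The log2 fold change was 0.38 ± 0.18 (SE), with an interval from -0.016 to 0.77 and a limma adjusted p of 0.243. A rise as large as that of Dusp6 therefore lies within its interval. The control SD of 0.46 was among the widest of the members, and control replicate 1 was again the lowest array. Without that array the log2 fold change of Dusp1 was 0.23, and without control replicate 3 it was 0.50. It depended on covariates as well, with 0.15 for the macrophage marker mean, 0.69 for the 3′ to 5′ ratio of control probe sets and 1.17 for the endothelial marker mean, and was called in none of these fits (limma adjusted p = 0.656, 0.083 and 0.063).

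The 250 bases before the start of Dusp1 are shown because a cAMP response element (TGACGTCA) was found there, the site bound by CREB. The window lies at chr17:26508473-26508722 on the minus strand (RefSeq, GRCm38.p6), is printed 5′ to 3′ along the gene, and has the motif in capitals.
Dusp1: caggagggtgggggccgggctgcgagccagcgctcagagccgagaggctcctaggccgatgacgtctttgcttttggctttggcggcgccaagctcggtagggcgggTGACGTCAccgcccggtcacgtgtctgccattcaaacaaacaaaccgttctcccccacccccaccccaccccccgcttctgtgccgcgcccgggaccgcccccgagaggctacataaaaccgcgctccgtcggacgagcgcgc
The match begins 143 bases before the start, and the motif occurs in 1.55% of 32851 such windows.

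Dusp2, an inducible nuclear phosphatase best known from activated immune cells, and Dusp5, which binds ERK and holds it in the nucleus, showed small differences. Dusp2 had a control mean of 7.84 ± 0.13 and a treated mean of 7.87 ± 0.11 (SD, n = 6 each), a log2 fold change of 0.030 with an interval from -0.11 to 0.17. For Dusp5 the control arrays ran from 8.22 through a median of 8.45 to 8.70 and the treated arrays from 8.14 through 8.39 to 8.49. The groups of Dusp5 overlapped in part, with 3 controls above every treated array and 1 treated array below every control. Its log2 fold change was -0.093 ± 0.083 (SE), with an interval from -0.27 to 0.085 (limma adjusted p = 0.555). Both intervals end below the lower bound found for Dusp4.

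The upstream sequence of Dusp5 is shown because it held the serum response element, the site through which serum response factor acts with ERK-activated partners. The window lies at chr19:53528895-53529144 on the plus strand (RefSeq, GRCm38.p6), with the motif in capitals.
Dusp5: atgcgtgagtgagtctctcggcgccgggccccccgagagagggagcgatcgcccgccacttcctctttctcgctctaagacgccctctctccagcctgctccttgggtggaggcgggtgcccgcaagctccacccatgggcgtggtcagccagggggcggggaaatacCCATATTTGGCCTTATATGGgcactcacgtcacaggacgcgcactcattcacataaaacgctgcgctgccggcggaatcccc
The capitals hold 2 adjoining matches, which begin 82 and 72 bases before the start, and 1.47% of all windows hold at least 1.

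Among the cytoplasmic enzymes Dusp6, the ERK-selective phosphatase that ERK signalling itself induces, rose. It read 9.79, 10.45, 10.66, 10.34, 10.64 and 10.43 on control arrays 1 to 6, and 10.97, 11.09, 11.11, 11.02, 11.06 and 10.85 on anti-FGFR1 arrays 1 to 6. The groups did not overlap. The lowest treated array was replicate 6, as for Dusp4, and the lowest control was replicate 1. The control mean was 10.38 ± 0.31 (SD, n = 6) and the treated mean 11.02 ± 0.096 (SD, n = 6). The treated arrays lay closer together, as they did for every other member, and control replicate 1 lay well below the other controls. The log2 fold change was 0.63 ± 0.12 (SE, 95% interval 0.39 to 0.88), with a limma adjusted p of 0.00383. Without control replicate 1 it was 0.52 (limma adjusted p = 0.0006).

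The window before Dusp6, the member whose groups did not overlap, lies at chr10:99262981-99263230 on the plus strand (RefSeq, GRCm38.p6). It held no match to the motifs searched, so no letter is capitalised.
Dusp6: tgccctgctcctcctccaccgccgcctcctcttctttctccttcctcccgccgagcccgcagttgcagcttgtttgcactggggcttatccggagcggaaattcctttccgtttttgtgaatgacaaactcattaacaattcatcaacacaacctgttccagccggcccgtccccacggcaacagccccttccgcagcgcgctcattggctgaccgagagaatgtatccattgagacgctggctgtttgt
Of the 10 members 8 have a window in the RefSeq table, not Dusp4 and Dusp9. On either strand these 8 windows held the cAMP response element in Dusp1 and Dusp8 and the serum response element in Dusp5. They held no AP-1 site (TGANTCA, in 6.75% of all windows) and no ETS site (CCGGAAG, in 6.91%), and no matches of different motifs overlapped. A match in letters is not a binding site, and other windows or other letters were not searched.

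The other cytoplasmic members, Dusp7 and Dusp9, which also prefer ERK, were not called. Dusp7 ran from 8.27 through a median of 8.44 to 8.52 in controls and from 8.33 through 8.44 to 8.52 after anti-FGFR1. These ranges nearly coincide, and the log2 fold change was 0.0028 with an interval from -0.11 to 0.11. Its remaining probe sets gave 0.024 and -0.091. Dusp9 was dim, with controls from 6.05 through 6.36 to 6.61 and treated arrays from 6.41 through 6.54 to 6.69, all below the array medians. Of the treated arrays 1 lay above every control and the others lay in the upper part of the control range. The log2 fold change was 0.18 ± 0.077 (SE), with a limma adjusted p of 0.179. The remaining probe sets of Dusp9, also below the array medians, pointed in different directions at -0.17 and 0.097.

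The phosphatases that prefer JNK and p38 all lay below 0, and none was called. Dusp16 ran from 9.08 through a median of 9.45 to 9.93 in controls and from 9.03 through 9.19 to 9.32 after anti-FGFR1. Its groups overlapped, with 4 controls above every treated array and 1 treated array below every control. The log2 fold change was -0.29 ± 0.12 (SE), with an interval from -0.54 to -0.044, a limma p of 0.0243 and an adjusted p of 0.147. Dusp10 ran from 8.74 through 9.36 to 9.84 in controls and from 8.72 through 9.10 to 9.34 after anti-FGFR1. Here 3 of the controls exceeded every treated array, and the control SD of 0.48 was the widest of the members. Its log2 fold change was -0.25 ± 0.18 (SE, limma adjusted p = 0.462), and its other probe set gave -0.18. Dusp8 differed by -0.043 ± 0.096 (SE, limma adjusted p = 0.839), from 9.42 ± 0.24 to 9.38 ± 0.11 (SD, n = 6 each). A dim probe set of Dusp8 gave -0.22 with an unadjusted p of 0.0239 (limma adjusted p = 0.156), and another gave -0.10. All 3 genes lay below 0, where 53.4% of all genes lay above 0. Their 7 probe sets lay below 0 as well, and the share over all probe sets was not computed. Probe sets of 1 gene are not independent of each other, and Dusp8 and Dusp10 changed sign under some other settings.

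**Figure D2:**
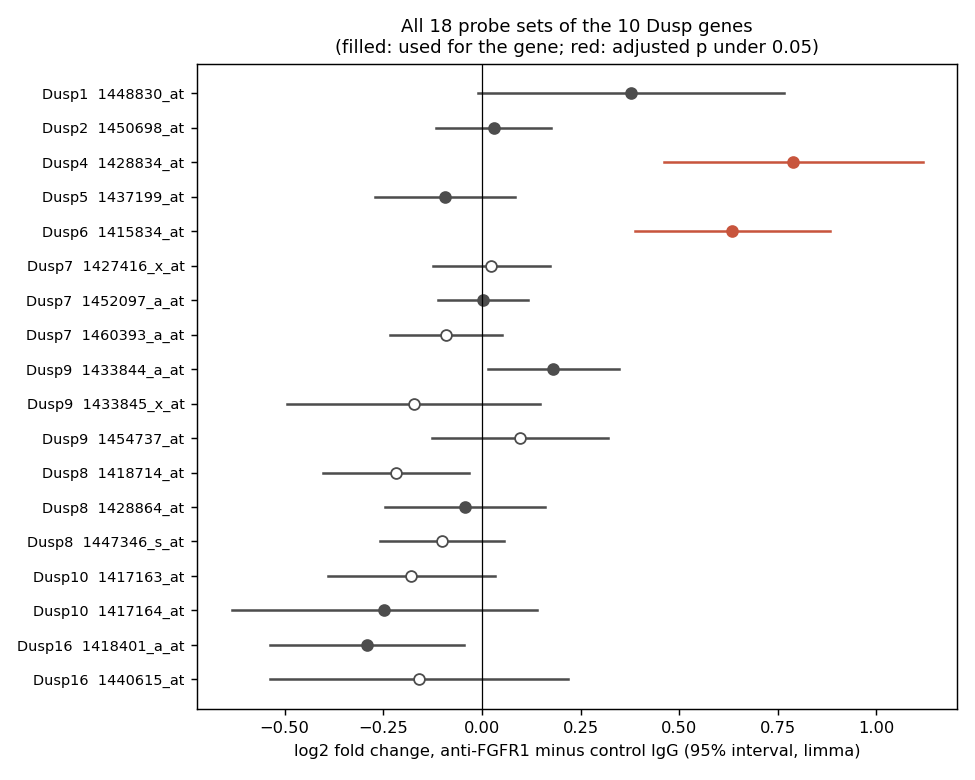
Log2 fold change (anti-FGFR1 minus control IgG) of all 18 probe sets of the 10 genes with the 95% interval from limma. Filled points are the probe sets used for the gene, open points the others, and red marks an adjusted p under 0.05, reached by the probe sets of Dusp4 and Dusp6 only.

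When each of the 18 probe sets was tested on its own, those of Dusp4 and Dusp6 were called higher (limma adjusted p = 0.00603 and 0.00405), 0 were called lower and 16 were not called. Over all single-gene probe sets 6.9% were called, 2.15% higher and 4.75% lower. Probe sets of Dusp7 and of Dusp9 differed in sign, whereas those of Dusp8, Dusp10 and Dusp16 did not.

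Whether members of a class differed from each other was tested for the 12 pairs within the classes, on the difference of their log2 values in each mouse. An exact permutation test over all 924 assignments was used, two-sided, with a smallest possible p of 0.0022, and 5 pairs passed after adjustment over the 12. In the nuclear class the change of Dusp4 exceeded that of Dusp5 by 0.88 ± 0.21 (SE, exact adjusted p = 0.0173). It exceeded that of Dusp2 as well, with a difference of Dusp2 minus Dusp4 of -0.76 ± 0.20 (SE, exact adjusted p = 0.0195). The difference of Dusp1 minus Dusp4 was smaller, at -0.41 ± 0.12 (SE, exact adjusted p = 0.0364). In the cytoplasmic class the change of Dusp6 exceeded that of Dusp7 by 0.63 ± 0.14 and that of Dusp9 by 0.45 ± 0.16 (SE, exact adjusted p = 0.0173 for both). No pair among Dusp8, Dusp10 and Dusp16 passed, and the closest was Dusp8 minus Dusp16 at 0.25 (exact adjusted p = 0.104). Dusp1 minus Dusp5 reached 0.47 with an exact p of 0.0498 and an adjusted p of 0.0996. Probe sets can answer the same change with different strength, and dim ones understate it, so these differences are of signals.

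Within the groups, Dusp4 and Dusp6 moved together from mouse to mouse. After the group means were taken away, Pearson's r was 0.919 over the 12 arrays (permutation within groups, p = 6e-05, adjusted over 45 pairs of members 0.0027) and Spearman's rho 0.923 (permutation p = 0.00018, adjusted 0.0081). Without control replicate 1 and treated replicate 6, the arrays farthest from the median of Dusp4, r was 0.847. It was 0.979 among the 6 controls and 0.961 among the 6 treated arrays. This was the 1 pair of the 45 that passed.

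**Figure D3:**
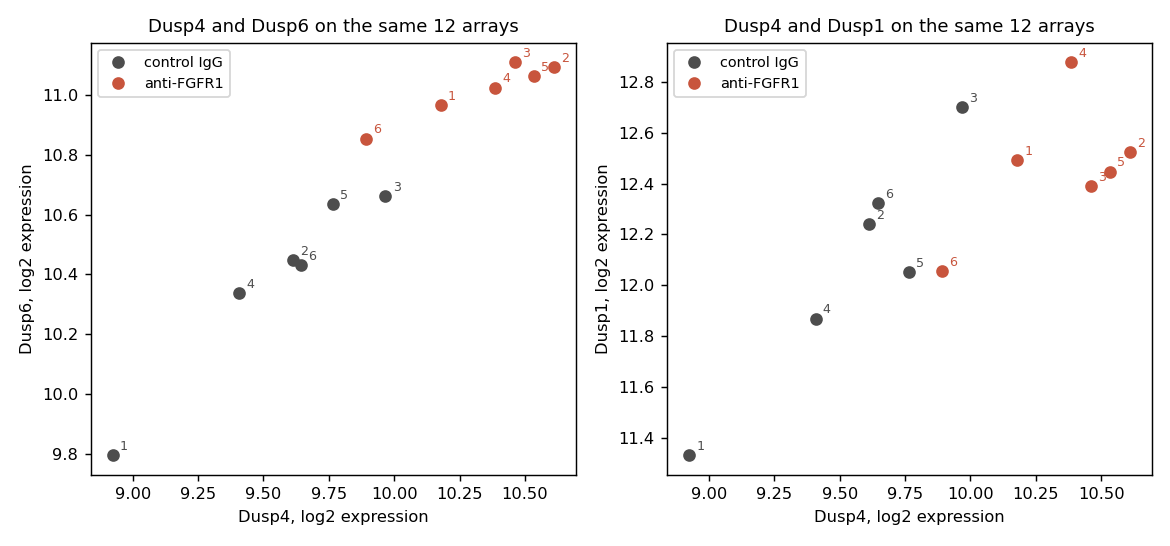
Log2 expression of Dusp6 (left) and Dusp1 (right) against Dusp4 on the same 12 arrays, numbered by replicate, with controls in grey and anti-FGFR1 in red. Dusp6 follows Dusp4 within each group (r 0.979 and 0.961), and control replicate 1 lies at the low end of both panels.

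Dusp1 followed Dusp4 less closely. Its r with Dusp4 was 0.826 (permutation p = 0.00444, adjusted 0.0999), with a rho of 0.545 (permutation p = 0.0927, adjusted 0.861). Among the controls that r was 0.942, and among the treated arrays 0.573. Without control replicate 1 it was 0.692, where that of Dusp4 with Dusp6 was 0.894. Without control replicates 1 and 3, the arrays farthest from the median of Dusp1, it was 0.562, so the relation rests in part on those arrays. With Dusp6 the r of Dusp1 was 0.801 (permutation p = 0.0102, adjusted 0.153), the rho 0.524, and the r without the same arrays 0.371.

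Among the 9095 other genes brighter than the median gene, those whose group-centred values over the 12 arrays were most like Dusp4 were Gtf2e1 (r = 0.952), a subunit of general transcription factor TFIIE, Rbbp7 (r = 0.946), a histone-binding subunit of chromatin complexes, and Ets1 (r = 0.944), a transcription factor. For Dusp6 they were Cdk9 (r = 0.962), the kinase that releases paused RNA polymerase, Ets1 (r = 0.945) and Dennd10 (r = 0.943). None of these 5 genes was called, and their log2 fold changes lay between -0.061 and 0.093. Dusp6 ranked at place 6 among the genes most like Dusp4, and Dusp4 at place 13 among those most like Dusp6. Spry4, which rose between the groups as both did, ranked at place 1478 for Dusp4 (r = 0.555) and 3708 for Dusp6 (r = 0.320). Dusp1 ranked at place 108 for Dusp4. All these genes share the same 12 arrays and their normalization, and the values of r are given as a description.

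The genes around the phosphatases were read from lists. These were chosen with earlier results of these data known, so their counts and medians are descriptions and not tests. Of the other feedback inhibitors of ERK signalling, all 8 measured genes lay above 0 (median 0.19, against 0.0091 for all genes). Of these 2 rose, against 2.94% of all genes, and 4 had an unadjusted p under 0.05. Spry4, a Sprouty protein that blocks RAS and RAF activation, rose from 9.25 ± 0.22 to 9.82 ± 0.15 (SD, n = 6 each), by 0.57 ± 0.097 (SE, limma adjusted p = 0.00239). Spred2, which acts on the same step through neurofibromin, rose by 0.32 ± 0.065 (SE, limma adjusted p = 0.00758). For both genes all 6 treated arrays lay above all controls. With the mean of its probe sets Spred2 was at 0.17 (limma adjusted p = 0.0311). Spred3 at 0.18 (limma adjusted p = 0.071) and Il17rd, a membrane inhibitor of FGF signalling, at 0.15 (limma adjusted p = 0.363) were not called.

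In the ERK cascade 20 of 26 listed genes were measured, of which 0 rose and 2 fell. Braf, the RAF kinase upstream of MEK, fell by 0.25 on the log2 scale (SE 0.045, limma adjusted p = 0.00385), and Ptpn11, the phosphatase SHP2 that carries receptor signals to RAS, fell by 0.20 (SE 0.047, limma adjusted p = 0.0185). The cascade's median was -0.032. Neither fall held under every setting: with the mean of its probe sets Braf was at -0.10 (limma adjusted p = 0.119), while Ptpn11, in a fit that held the 3′ to 5′ ratio of the control probe sets, was at -0.18 (limma adjusted p = 0.132). Pebp1, an inhibitor of the cascade, was at 0.13 (limma adjusted p = 0.0902).

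The cascades to JNK, p38 and ERK5 had 23 measured genes, of which 0 rose and 2 fell. Both that fell are MAP kinase kinases that activate p38, a kinase the phosphatases Dusp10 and Dusp16 act on. Map2k3 fell by 0.24 (SE 0.043, limma adjusted p = 0.00342) and Map2k6 by 0.26 (SE 0.065, limma adjusted p = 0.0242). Map2k6 was dim, with means of 7.10 in controls and 6.84 after anti-FGFR1, both below the array medians. The call of Map2k6 was lost without control replicate 2 or 3 or treated replicate 3 or 4, at -0.23 to -0.24 and a limma adjusted p up to 0.0594. It was also lost with the macrophage marker mean as a covariate, at -0.25 (limma adjusted p = 0.0616). Map2k5, the activator of ERK5, was at 0.16 (limma adjusted p = 0.142). Of 7 measured kinases that MAP kinases activate, 1 fell, the p38 target Mapkapk2, by 0.25 (SE 0.040, limma adjusted p = 0.0017). Mapkapk5 was at -0.17 (limma adjusted p = 0.0831) and Rps6ka3, an ERK-activated ribosomal S6 kinase, at 0.22 (limma adjusted p = 0.106). The count of genes that fell over these cascades stands beside 5.09% of all genes.

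The remaining dual-specificity and MAP kinase tyrosine phosphatases, 20 genes measured of 22, gave 0 calls in either direction in limma. An unadjusted p under 0.05 was seen for 4 of them, and their median was 0.00099. Those with the smallest p were Styx, a catalytically inactive relative, at -0.19 (limma adjusted p = 0.0753), Dusp28 at -0.15 (limma adjusted p = 0.112) and Dusp3, an atypical ERK and JNK phosphatase, at -0.12 (limma adjusted p = 0.155).

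Targets that ERK is known to induce, other than its inhibitors, were read in an early and a delayed list. Of 12 immediate early genes 0 were called in limma, with 1 at an unadjusted p under 0.05 (Jun at -0.37, limma adjusted p = 0.217). After Jun the smallest p were those of Fosb at -0.11 and Junb at 0.14. Egr1, the classic early ERK target, ran from 8.48 to 11.13 in controls and from 8.63 to 10.41 after anti-FGFR1, a spread far wider than its log2 fold change of -0.024. Fos was at -0.065 ± 0.27 (SE). Of 9 delayed ERK targets 0 rose and 1 fell, Ccnd1, the cyclin that drives entry into the cell cycle, by 0.90 (SE 0.11, limma adjusted p = 0.000295). An unadjusted p under 0.05 was seen for 4 of the 9, beside 22.4% of all genes, and 5.09% of all genes fell. Their log2 fold changes ran from -0.90 to 0.46, and the gene at 0.46 was not called. Etv4 and Etv5, ETS factors induced by FGF signals, were at 0.11 (limma adjusted p = 0.222) and 0.035 (limma adjusted p = 0.906). Phlda1 was at -0.30 (limma adjusted p = 0.111) and Plaur at -0.35 (limma adjusted p = 0.171).

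Since glucocorticoids also induce Dusp1, genes they are known to induce were read too. Of 10 measured, 0 rose and 3 fell, against 5.09% of all genes. Fkbp5, a co-chaperone of the glucocorticoid receptor, fell by 0.38 (SE 0.070, limma adjusted p = 0.00399), and the metallothioneins Mt1 and Mt2 fell by 0.34 and 0.52 (limma adjusted p = 0.0016 and 0.00188). In the fit that held the 3′ to 5′ ratio Fkbp5 was at -0.34 (limma adjusted p = 0.058), and with the mean of its probe sets Mt1 was at -0.15 (limma adjusted p = 0.0658). Dusp1 itself, as given above, did not pass the test.

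**Figure D4:**
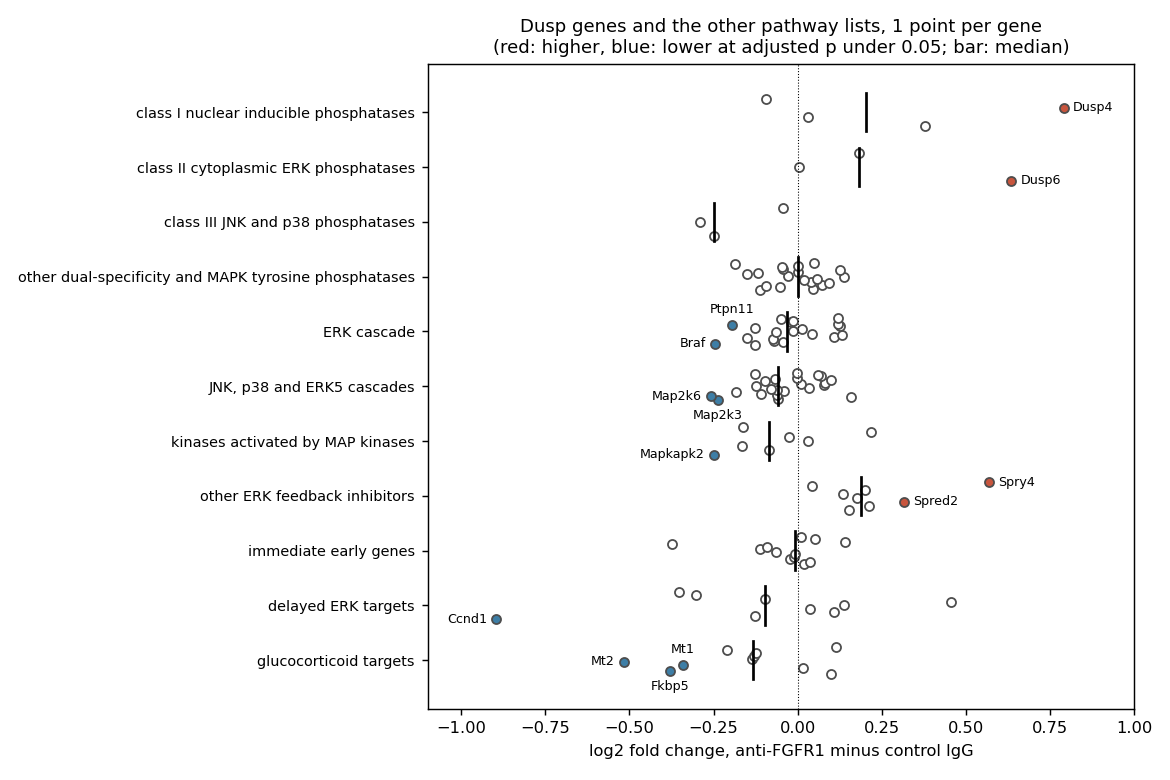
Log2 fold change of the 10 phosphatase genes by class and of the genes of 8 further lists, 1 point per gene, with the list's median as a bar. Red and blue points were called higher or lower at a limma adjusted p under 0.05, and points called higher occur only in the nuclear class, the cytoplasmic class and the other ERK feedback inhibitors.

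In bulk tissue fewer cells of a type and less RNA per cell cannot be told apart. Markers of several cell types differed between the groups. Of 14 endothelial markers 8 fell and 0 rose, and their mean per array was 9.48 to 9.71 in controls and 9.22 to 9.45 after anti-FGFR1 (exact permutation p = 0.0022, adjusted over 11 lists 0.0119). Of 10 smooth muscle and pericyte markers 6 fell and 0 rose, with a mean of 9.62 to 9.79 in controls and 9.33 to 9.53 after anti-FGFR1 (exact adjusted p = 0.0119). Dusp4 and Dusp6 were higher in the same treated arrays, and which cells carry their RNA was not tested. Of 14 macrophage markers 3 rose, with means of 9.72 to 10.36 and 9.98 to 10.38 (exact adjusted p = 0.119). Of 7 B cell markers 2 rose, and their mean was higher by 0.19 (exact adjusted p = 0.0159). The counts of markers stand beside 2.94% of all genes that rose and 5.09% that fell.

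The members were fitted again with such measures as covariates. With the macrophage mean in the model, Dusp4 was at 0.62 and Dusp6 at 0.52 (limma adjusted p = 0.039 and 0.026). With the endothelial mean, which separates the groups without overlap and so leaves little to estimate the treatment from, they were at 1.53 and 1.09 (limma adjusted p = 0.006 and 0.021). In that fit 1 of the 11 genes called on the pathway lists was still called, Spry4 at 0.93 (limma adjusted p = 0.0207), and Spred2 was at 0.45 (limma adjusted p = 0.111). The signal ratio of 3′ to 5′ control probe sets, a sign of RNA integrity, had on the log2 scale a control mean of 0.161 ± 0.031 and a treated mean of 0.203 ± 0.027 (SD, n = 6 each, exact permutation p = 0.0368). The difference was 0.069 for Actb alone (exact permutation p = 0.0433) and 0.014 for Gapdh alone (exact permutation p = 0.506), so it did not pass for Gapdh. Control replicate 1, the lowest array in Dusp1, Dusp4 and Dusp6, had the highest ratio of the controls at 0.221. With this ratio in the model Dusp4 was at 0.95 and Dusp6 at 0.83 (limma adjusted p = 0.017 and 0.004). Whether cell makeup or RNA quality has a part in the size of these differences was not tested beyond these fits.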

How the data were processed

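The authors deposited log2 expression values of 45101 probe sets on 12 single-colour Affymetrix arrays. The submitters' processing notes name RMA and limma without versions. RMA corrects background, normalizes the arrays together and summarises probes. The values, between 3.16 and 14.9, were used as deposited. No detection calls are given, background that remains in the signal can pull changes of dim probe sets toward 0, and precision is limited by how many arrays there are.

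Names came from the platform annotation, updated by Entrez identifier (34741 matched to the RefSeq gene table). Of the probe sets 34945 had a single gene, 932 several and 9211 no entry, and 64 were controls. Only single-gene probe sets were tested. Each gene was read by the brightest of its probe sets on average, which left 18193 genes. No genome build is given for the values in the sources used here. Promoter windows came from RefSeq (GRCm38.p6).

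Groups were compared in R 4.3.3 with limma 3.58.1 (lmFit and eBayes, two-sided, no covariate), with data.table (version 1.17.8) for reading; Benjamini-Hochberg adjustment ran over all genes and an adjusted p under 0.05 was called. Values per array and differences between members were compared by exact permutation, and relations between members with 100000 permutations within groups (Python 3.11.15, numpy 2.4.6, scipy 1.17.1, pandas 2.3.3; figures with matplotlib 3.10.9). The gene test was tested on simulated data. Members and lists were chosen with earlier results of these data known. The text names all 10 members, of each pathway list up to 3 genes with the smallest p, the genes Spry4, Spred2, Il17rd, Etv4, Etv5, Ccnd1, Egr1, Fos and Fkbp5 whatever their values, and 3 genes most like each called member. Some genes of the rule are not reported here. Ucp1 was added as a tissue check. Alternatives were another quantile normalization, median centring, the mean of all probe sets, a filter on dim genes, a trended robust variance, array weights, a replicate block, covariates for RNA ratio, muscle, macrophage and endothelial markers, and leaving out arrays. The labels give 6 mice per group, so each array is a separate animal. At most 0.0665% of the values of any array were identical in another.

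The marker lists not described elsewhere gave these means of anti-FGFR1 minus control. They were 0.12 for brown adipocytes, 0.10 for T cells, 0.096 for mast cells and granulocytes, 0.11 for fibroblasts and preadipocytes, 0.015 for nerve and Schwann cells and -0.048 for red blood cells. None of these means passed the exact permutation test after adjustment over the 11 lists. Single markers were called in limma all the same, beside 2.94% of all genes higher and 5.09% lower. Brown adipocytes had 2 higher and 0 lower, mast cells and granulocytes 2 and 1, and fibroblasts and preadipocytes 2 and 2. Nerve and Schwann cells had 1 and 1, red blood cells 0 and 1, and T cells 0 and 0.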

Additional observations from a re-analysis of the deposited data

Results flagged for a closer look

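Among 74 groups of 6 arrays, 1 array stood apart from the rest of its group in 6 of them by Dixon's criterion (critical value 0.625), and chance alone flags about 1 in 20. A dim Dusp8 probe set read 5.44 on control replicate 2, with the nearest array at 5.79. Another Dusp8 probe set read 8.31 on control replicate 5, with the nearest at 7.97. Neither is the probe set by which Dusp8 was read. The 3′ to 5′ ratio was 0.221 on control replicate 1, with the nearest control at 0.163, and this array was also the lowest in Dusp1, Dusp4 and Dusp6. The mean of the skeletal muscle markers was 7.05 on anti-FGFR1 replicate 5, with the nearest treated array at 10.4; none of these 12 markers was called in limma, and 0 had an unadjusted p under 0.05. The mean of the immediate early genes was 8.62 on anti-FGFR1 replicate 1, with the nearest at 9.02. The mean of the other ERK feedback inhibitors was 8.12 on control replicate 2, with the nearest at 8.20.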

How the results depend on the processing

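Dusp4 and Dusp6 were the 2 members called under all 12 other settings and without each array in turn. Across the 12 settings Dusp4 ran from 0.62 to 1.53 and Dusp6 from 0.52 to 1.09, with limma adjusted p up to 0.0389 and 0.0262; without each array Dusp4 ran from 0.66 to 0.88 and Dusp6 from 0.52 to 0.69. The count of genes called was 1461, against 688 with the 3′ to 5′ ratio and 140 with the endothelial mean as a covariate, and 1043 to 1698 without each array. Of the genes on pathway lists 11 were called, against 19 with the macrophage mean, 2 with the endothelial mean and 10 to 14 without each array. Calls split into 535 higher and 926 lower as deposited, and into 732 and 760 after another quantile normalization. The 3′ to 5′ difference was 0.014 with Gapdh alone. Uncalled members changed sign: Dusp7 to -0.0017 (median centring), -0.021 (mean of probe sets), -0.017 (macrophage mean) and -0.013 (array weights), Dusp2 to -0.021 (ratio), -0.12 (endothelial mean) and -0.018 (without the array lowest in muscle markers in each group, chosen after seeing the data), Dusp10 to 0.020 (ratio) and 0.25 (endothelial mean), and Dusp8 to 0.0076 (array weights). Without each array Dusp7 ran from -0.027 to 0.023, Dusp8 from -0.13 to 0.0070 and Dusp2 from -0.0099 to 0.058. The cause was not tested. Over all probe sets, same-numbered arrays deviated together weakly or not at all (r from -0.168 to 0.245). In 2 of 6 cases the best match was the own number. With the replicate number as a block 1337 genes and 2 members were called. The block narrowed the SE of Dusp4 from 0.16 to 0.12 and that of Dusp6 from 0.12 to 0.094. For other members the SE widened, as for Dusp9 from 0.077 to 0.087. Dim probe sets limit what can be read of Dusp9.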
